A study of Rattus norvegicus with 18 samples.

Results

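Nucleated cells display peptides from their own proteins on MHC class I molecules, each built from a heavy chain, the small subunit beta2-microglobulin and a peptide. In cells exposed to interferon gamma, the transcription factor IRF1 activates this pathway, and inducible proteasome subunits take the places of constitutive ones, giving the immunoproteasome. Peptides cut by the proteasome are carried into the endoplasmic reticulum by the TAP transporter. In the rat the MHC is called RT1, and in kidney class I is found on endothelium, leukocytes and, at lower levels, tubular epithelium.

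The transcripts of 10 genes of this pathway were measured in rat kidney with oligonucleotide arrays: 5 class I heavy chain genes (RT1-A1, RT1-CE5, RT1-CE16, RT1-S3 and RT1-N3), B2m, the immunoproteasome genes Psmb8 and Psmb9, the transporter gene Tap1 and Irf1. The members were all probe sets (groups of short probes for 1 transcript) to which the platform annotation assigned exactly 1 of these symbols. They number 21 of 26202 probe sets, and all 10 genes had at least 1. A further 7 probe sets that carry several symbols, 1 of them a member, were not used.

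The study set the inbred Dahl salt-sensitive (S) rat, whose blood pressure rises on a salty diet, against a congenic strain of S background. The congenic strain holds a chromosome 9 segment of the salt-resistant R rat with a blood pressure locus. By design both strains share the S genome elsewhere, which was not checked here. Total RNA of kidney came from 3 samples per strain, and every sample was run on 3 designs of array (types A, B and C), 18 arrays in all. The labels used here give no age, sex or diet, and do not say whether the samples of a strain are different animals. Each p-value therefore reflects sample-to-sample spread that could be technical, and the number of arrays limits the precision. By the GRCr8 gene table, the RT1 genes, Psmb8, Psmb9 and Tap1 lie on chromosome 20, B2m on chromosome 3 and Irf1 on chromosome 10, so no member lies on chromosome 9.

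Kidney identity was clear from segment markers such as Slc34a1, the proximal tubule phosphate cotransporter, whose main probe set gave 10806.5 to 16451.4 signal units, and Umod, uromodulin of the thick ascending limb, at 5763.4 to 7455.6. The samples numbered 1 of both strains stood apart at the low end of the scale. On type B the 25th percentile of signal was 24.1 and 24.6 in those samples and 13.8 to 20.3 in the other 4, and on type C it was 22.4 and 23.7 against 13.1 to 14.1. Member probe sets with low signal are affected by this and are described with each sample's value. In whole-kidney RNA, fewer cells of a type and less RNA per cell cannot be told apart.

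The promoters of these genes are known for short elements that bind interferon regulatory factors (IRFs) and NF-kB, and they are shown because each occurs in more than 5 of the 10 promoters, though not in all. The stretches below are from the RefSeq promoter table of GRCr8 (Brown Norway reference, 250 bases before to 50 after the annotated start). They are not the sequences of the Dahl S rat, which were not read here. All 10 members matched an entry. Capitals mark the NF-kB consensus and the IRF core AANNGAAA, searched on both strands; a match on the opposite strand reads as the reverse complement. The motifs were chosen after the sequences had been read.
RT1-A1 (chr20:4907068-4907127, plus strand): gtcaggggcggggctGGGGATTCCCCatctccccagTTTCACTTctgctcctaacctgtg
RT1-CE5 (chr20:3484213-3484272, minus strand): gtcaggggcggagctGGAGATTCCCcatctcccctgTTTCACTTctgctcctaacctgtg
RT1-CE16 (chr20:3265530-3265589, minus strand): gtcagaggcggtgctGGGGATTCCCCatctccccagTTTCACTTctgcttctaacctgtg
RT1-N3 (chr20:2666257-2666316, plus strand): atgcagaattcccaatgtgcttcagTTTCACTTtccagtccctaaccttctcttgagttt
RT1-S3 (chr20:2675391-2675450, plus strand): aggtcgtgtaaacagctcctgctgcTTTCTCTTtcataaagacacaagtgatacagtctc
B2m (chr3:129549157-129549216, plus strand): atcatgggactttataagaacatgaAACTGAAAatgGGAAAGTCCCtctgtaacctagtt
Psmb8 (chr20:4657022-4657081, minus strand): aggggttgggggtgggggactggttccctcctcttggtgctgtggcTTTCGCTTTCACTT
Tap1 (chr20:4668630-4668689, minus strand): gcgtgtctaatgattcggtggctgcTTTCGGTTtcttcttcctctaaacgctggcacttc

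In RT1-A1, RT1-CE5 and RT1-CE16 the NF-kB and IRF matches stand in the same arrangement. Over the 60 bases shown, RT1-A1 is identical to RT1-CE5 at 57 bases and to RT1-CE16 at 57, and RT1-CE5 to RT1-CE16 at 55. The IRF core occurs in 8 of the 10 windows, and in 26.4% of all 33469 windows in the table. The tandem form, 2 GAAA half-sites with 2 bases between them, overlaps the core. It occurs in 5 of the 10 (RT1-S3, RT1-N3, B2m, Psmb8 and Tap1) and in 3.92% of all windows. The NF-kB consensus occurs in 6 of the 10 and in 7.51% of all, and the letters CCAAT in 9 of the 10 and in 37.5% of all.

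Irf1 has neither IRF form in its window. It is shown for its NF-kB match, in capitals, which starts 65 bases before the start.
Irf1 (chr10:38417845-38417904, plus strand): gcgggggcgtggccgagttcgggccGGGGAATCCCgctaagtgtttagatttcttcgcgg
Psmb9 had a CCAAT match, which begins 22 bases after the annotated start, and none to the other motifs. Psmb9 and Tap1 are neighbours that run in opposite directions, with annotated starts 457 bases apart, so the elements shown for Tap1 lie between both genes. A match is a description of letters, and no match says only that the letters are not in this window.

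**Figure D1:**
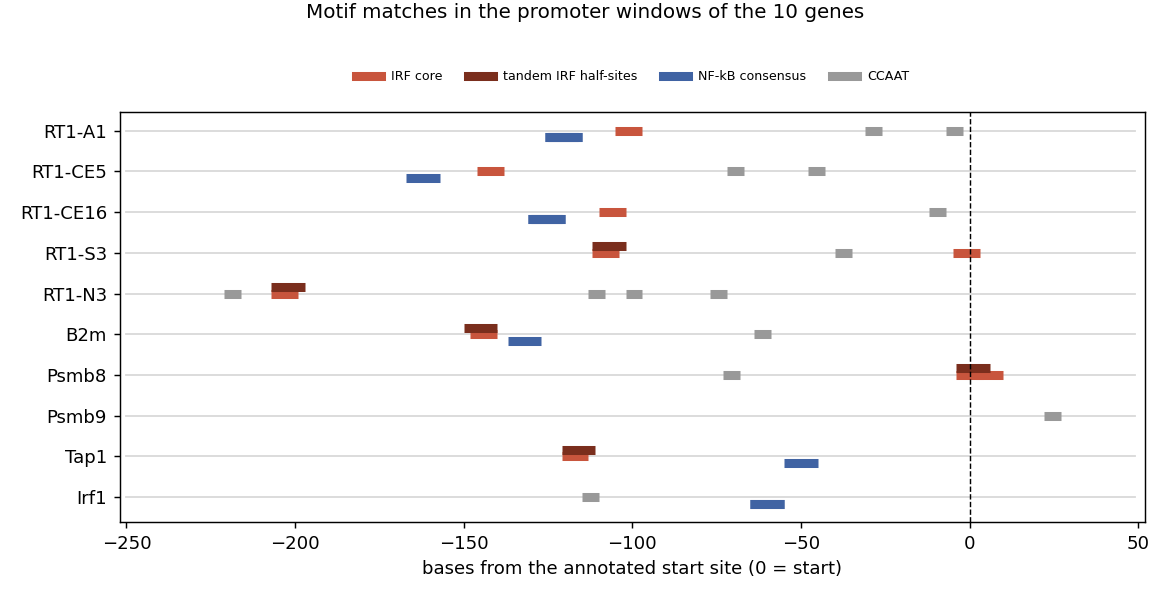
Motif matches in the promoter windows of the 10 genes. The horizontal axis gives bases from the annotated start site (0 is the start), and each coloured bar is 1 match on either strand. RT1-A1, RT1-CE5 and RT1-CE16 show the NF-kB match followed by the IRF core, and Irf1 shows an NF-kB match starting 65 bases before the start.

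Mean signals of Psmb9, Irf1 and Tap1 were lower in the congenic kidneys with every probe set. So were those of RT1-A1, RT1-CE5 and RT1-CE16, with 1 probe set each. Among these genes the strains overlapped in every probe set except 1 of Psmb9 and 1 of Irf1. The direction for Psmb8, RT1-S3 and B2m depended on the probe set, and RT1-N3 overlapped between strains. The 2 member probe sets that were higher without overlap were 1 of RT1-S3 (+0.42 log2 units) and 1 of B2m (+0.27). The largest separation was in 1 probe set of Psmb9, which was 1.75-fold lower in the congenic strain. None of the 20 tested member probe sets passed an adjusted p of 0.05 in limma, where 0 of all 15721 tested probe sets did (0.00%), and each member had an adjusted p = 0.9997. At an unadjusted p under 0.05 there were 4 members, against 2.49% (391) of all tested probe sets. Of the 4, 3 were lower in the congenic strain (1.32% of all) and 1 was higher (1.17% of all). The strains did not overlap in 4 member probe sets, 2 lower and 2 higher in the congenic samples, where 3.49% of all tested probe sets were lower without overlap and 3.59% higher. The congenic mean was the lower one in 14 of the 20 and the higher one in 6, with a median log2 difference of -0.15, against 50.5% lower and a median of -0.0035 over all probe sets. Probe sets of 1 gene share their target, so these counts are not of independent measurements.

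**Figure D2:**
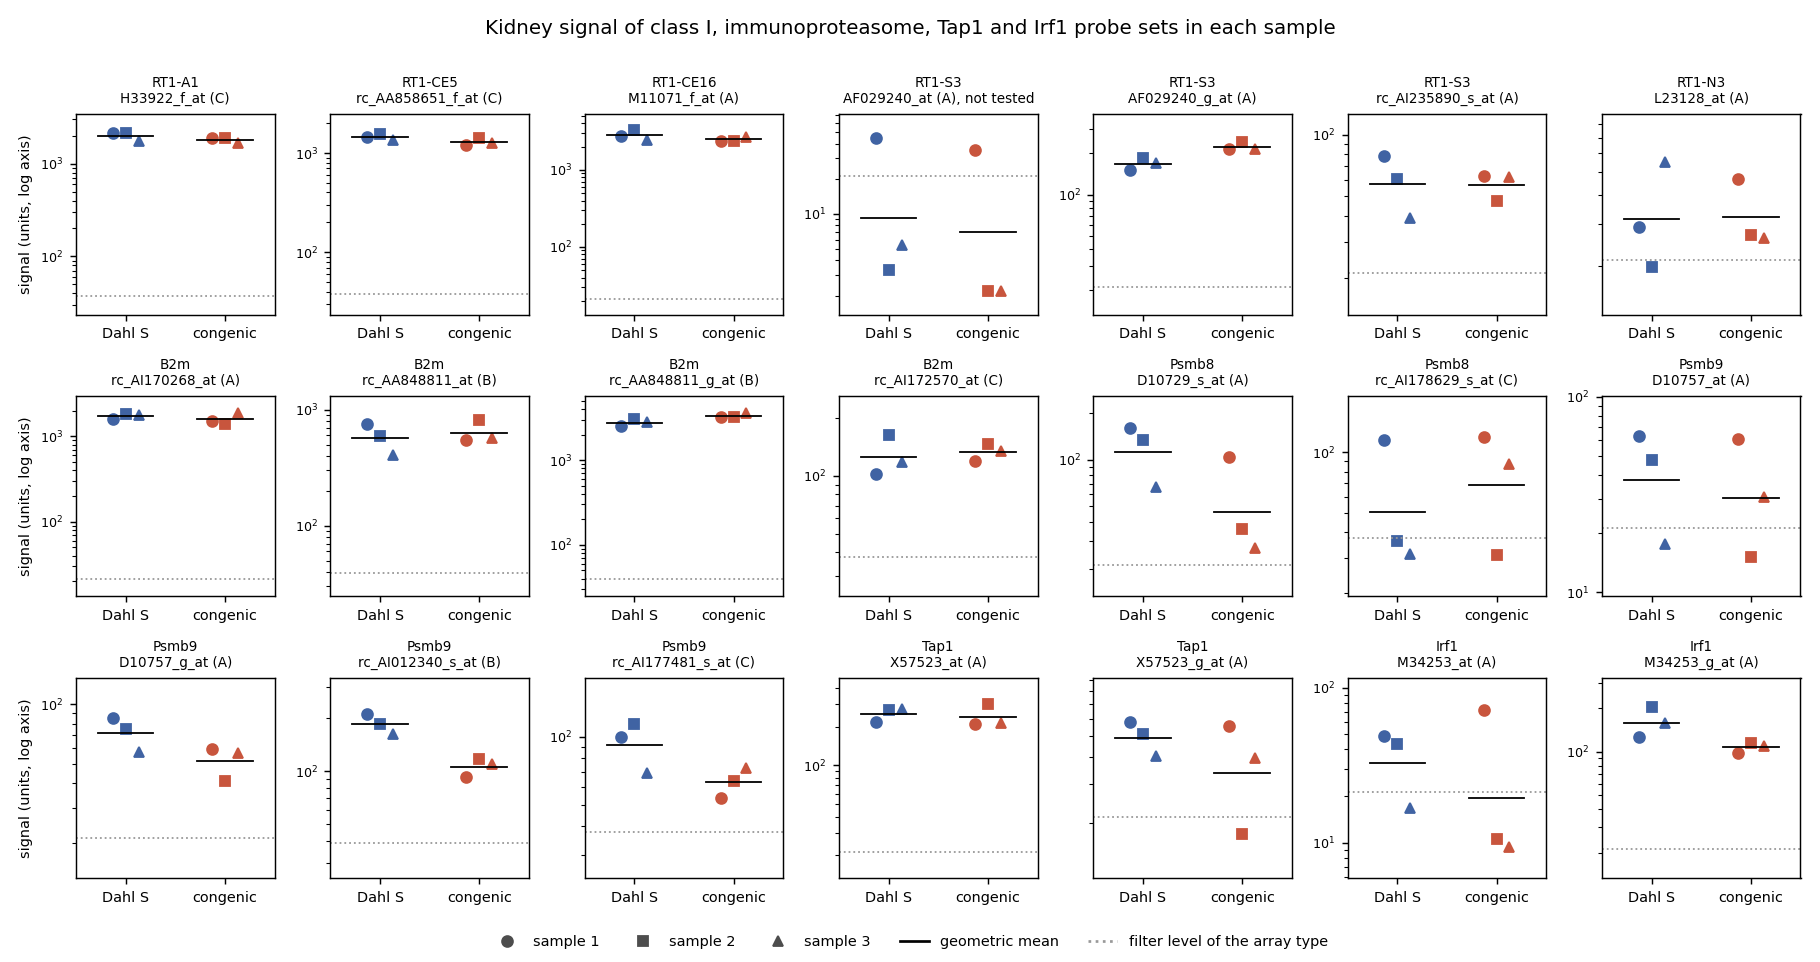
Signal of the 21 member probe sets on a log axis, with 1 point per sample (marker shape gives the sample number), the geometric mean of each strain as a bar and the filter level of the array type as a dotted line. The Psmb9 probe set on type B has all congenic samples (92.3 to 117.7) below all Dahl S samples (163.0 to 212.4), and several low-signal panels show the samples numbered 1 above the other samples.

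The class I heavy chains present the peptide. RT1-A1 is a classical class I gene of the RT1-A region, and its probe set gave 2146.3, 2130.5 and 1743.2 signal units in Dahl S samples 1, 2 and 3 and 1890.5, 1884.0 and 1659.2 in the congenic samples. The strains overlapped, with a log2 difference (congenic minus Dahl S throughout) of -0.14 (SE 0.15, n = 3 per strain). RT1-CE5 and RT1-CE16 belong to the class I genes of the RT1-C/E region. RT1-CE5 gave 1448.9, 1543.1 and 1341.9 in Dahl S and 1216.2, 1424.8 and 1261.1 in the congenic strain, a difference of -0.15 (SE 0.14). RT1-CE16 gave 2767.6, 3311.3 and 2417.4 against 2396.5, 2373.7 and 2696.6, a difference of -0.18 (SE 0.15).

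In these 3 genes the highest signal was always from a Dahl S sample and the strains overlapped. The 95% confidence intervals were -0.48 to 0.19, -0.46 to 0.16 and -0.52 to 0.17, so a congenic level lower by more than 0.52 log2 units was outside all of them. All 3 probe sets carry the array's suffix for a sequence family and the genes are close paralogs, so their signals cannot be assigned with certainty to 1 heavy chain gene, and the 3 values may share target RNA.

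RT1-S3 and RT1-N3 are nonclassical class I genes. RT1-S3 had 3 probe sets that did not read alike. One, AF029240_g_at, gave 151.1, 183.9 and 171.0 in Dahl S and 215.8, 242.7 and 215.6 in the congenic strain. Every congenic sample was above every Dahl S sample, and the difference was +0.42 (SE 0.18, 95% interval 0.01 to 0.82, limma adjusted p = 0.9997). It is the 1 higher member with an unadjusted p under 0.05. The second, rc_AI235890_s_at, gave 78.7, 61.0 and 39.3 against 62.8, 47.3 and 62.3, and the strains overlapped (-0.009, SE 0.35). The third, AF029240_at, made from the same transcript sequence as the first, was the 1 member below the filter and was not tested. It gave 44.7, 3.3 and 5.4 against 34.9, 2.2 and 2.2, high only in the samples numbered 1 of both strains. RT1-N3 gave 29.1, 19.8 and 55.2 against 46.9, 26.9 and 26.3, near the type A filter level of 21.2, and the strains overlapped (+0.02, SE 0.52).

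B2m encodes beta2-microglobulin, the partner of all these heavy chains. Its 4 probe sets differed by -0.12, +0.16, +0.27 and +0.09, and none had an unadjusted limma p under 0.05. On rc_AA848811_g_at the signal was 2502.4, 3025.7 and 2794.5 in Dahl S and 3188.0, 3263.6 and 3573.7 in the congenic strain, with no overlap and higher congenic values (SE 0.16). On the probe set of type A, rc_AI170268_at, it was 1616.0, 1826.9 and 1780.5 against 1535.1, 1415.0 and 1868.3, with overlap and a lower congenic mean (SE 0.14). The other probe set of type B, rc_AA848811_at, ranged from 408.8 to 818.3, and that of type C, rc_AI172570_at, from 102.4 to 162.6, both with overlap. The direction for B2m thus depended on the probe set.

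Psmb9 encodes the immunoproteasome subunit LMP2, which takes the place of the constitutive subunit encoded by Psmb6. Its probe set on type B, rc_AI012340_s_at, gave 212.4, 186.2 and 163.0 in Dahl S and 92.3, 117.7 and 109.9 in the congenic samples. All 3 congenic values were below all 3 Dahl S values. The difference was -0.81 (SE 0.28, 95% interval -1.43 to -0.19), with rank 99 of 15721 by p and a limma adjusted p = 0.9997.

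The other 3 Psmb9 probe sets had the same direction with overlap. That of type C, rc_AI177481_s_at, gave 99.6, 113.7 and 68.8 against 53.6, 63.8 and 72.4, where Dahl S sample 3 lay among the congenic values (-0.55, SE 0.31). D10757_g_at on type A gave 85.0, 75.3 and 57.2 against 59.8, 41.3 and 56.9 (-0.46, SE 0.31), where congenic sample 1 was above Dahl S sample 3. D10757_at, also on type A, gave 63.1, 47.2 and 17.7 against 60.6, 15.2 and 30.6, with 2 values below the filter level (-0.30, SE 0.67). The sign of this last one reversed without Dahl S sample 1 (+0.07) or congenic sample 2 (+0.20).

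Psmb8 encodes LMP7, which takes the place of the constitutive subunit encoded by Psmb5, and its 2 probe sets disagreed. D10729_s_at on type A gave 159.6, 132.4 and 66.7 in Dahl S and 103.6, 35.6 and 26.9 in the congenic strain. Congenic samples 2 and 3 were the lowest, and congenic sample 1 lay within the Dahl S range. This was the largest member difference, -1.28 (SE 0.55, 95% interval -2.53 to -0.02, limma adjusted p = 0.9997), 2.42-fold lower. Leaving out congenic sample 3 gave -0.88, Dahl S sample 1 -1.02 and congenic sample 1 -1.86. Without both samples numbered 1 it was -1.60. rc_AI178629_s_at on type C gave 115.6, 36.1 and 31.2 against 118.8, 30.8 and 87.7, with 3 values below the type C filter level of 37.7 and a difference of +0.43 (SE 0.65). The samples numbered 1 of both strains were its highest.

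Tap1 encodes 1 of the 2 subunits of the TAP transporter. X57523_at gave 218.7, 269.2 and 273.7 in Dahl S and 208.2, 299.6 and 215.7 in the congenic strain, with overlap (-0.09, SE 0.20). X57523_g_at gave 57.7, 51.1 and 40.4 against 55.7, 17.8 and 39.6. Its congenic mean was lower (-0.53, SE 0.48), which rested on congenic sample 2, and without that sample the difference was -0.07.

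Irf1 encodes the transcription factor that acts on Psmb9, Tap1 and class I promoters. M34253_g_at gave 126.5, 202.8 and 156.9 in Dahl S and 98.5, 115.4 and 109.6 in the congenic strain. No congenic value reached the lowest Dahl S value, and the difference was -0.56 (SE 0.24, 95% interval -1.11 to -0.02, limma adjusted p = 0.9997), 1.48-fold lower. It was -0.39 without Dahl S sample 2 and -0.73 without Dahl S sample 1. M34253_at, from the same transcript sequence, gave 48.8, 43.1 and 16.7 against 72.3, 10.6 and 9.4, with 3 values below the filter level. Congenic sample 1 was the highest of all, and congenic samples 2 and 3 were the lowest (-0.76, SE 0.86). Leaving out 1 sample gave -1.71 (without congenic sample 1) to -0.24 (without congenic sample 3), and -0.33 without congenic sample 2.

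**Figure D3:**
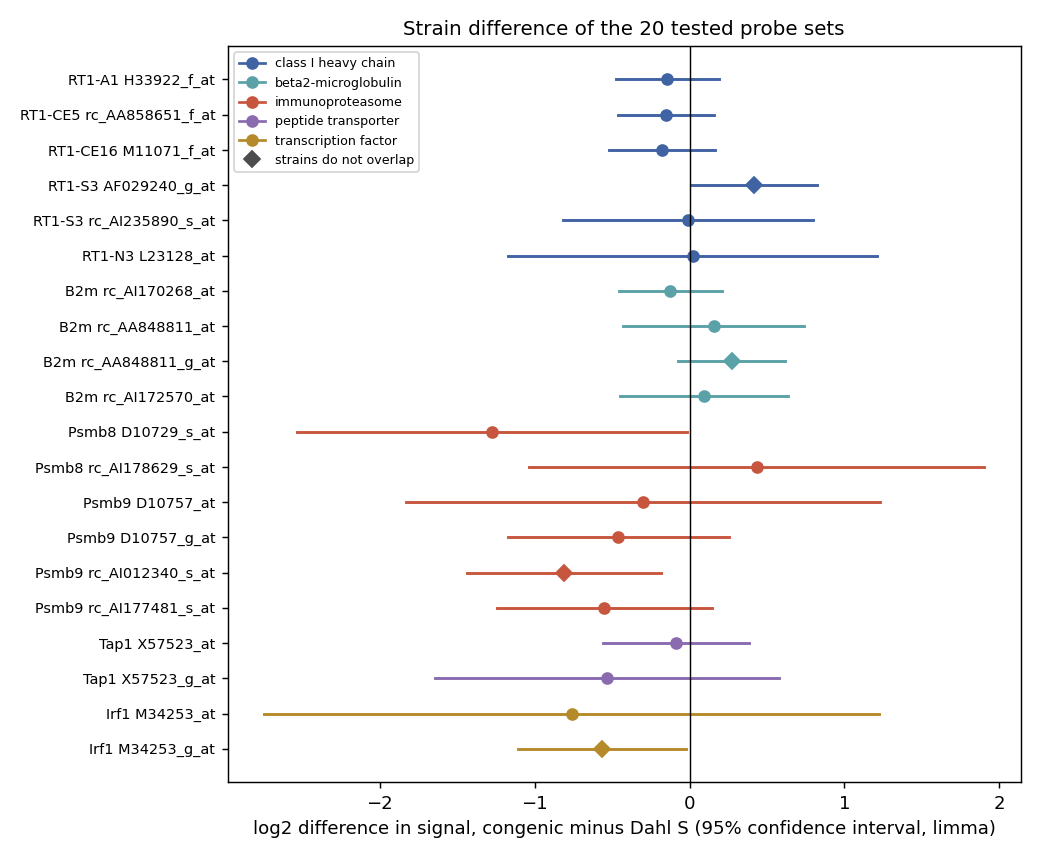
Log2 difference in signal, congenic minus Dahl S, of the 20 tested member probe sets, with limma's 95% confidence interval as a line and colour by role; diamonds mark probe sets whose strains do not overlap. The heavy chain and B2m points lie within 0.5 log2 units of 0, and the Psmb9, Tap1 and Irf1 points all lie below 0.

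By role, the immunoproteasome probe sets had a median difference of -0.51 (5 of 6 lower), the 2 of Irf1 -0.66, the 2 of Tap1 -0.31, the 6 tested heavy chain probe sets -0.08 (4 of 6 lower) and the 4 of B2m +0.12 (1 of 4 lower). These medians describe the probe sets and were not tested. The samples behind them differed within a strain. For the immunoproteasome probe sets, the median deviation from the mean of all samples was 0.75, 0.44 and -0.13 in Dahl S samples 1, 2 and 3 and 0.25, -0.75 and -0.12 in the congenic samples. Dahl S sample 3 and congenic sample 3 were thus alike, and the strains overlapped. For Irf1 the values were 0.45, 0.70 and -0.16 in Dahl S and 0.56, -0.71 and -0.84 in the congenic strain, where congenic sample 1 lay within the Dahl S range. Over the 20 probe sets, Dahl S samples 1, 2 and 3 were the highest in 7, 5 and 1, and the congenic samples in 2, 3 and 2. Congenic samples 1, 2 and 3 were the lowest in 5, 6 and 3, and the Dahl S samples in 3, 1 and 2. The same counts over all probe sets were not made.

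**Figure D4:**
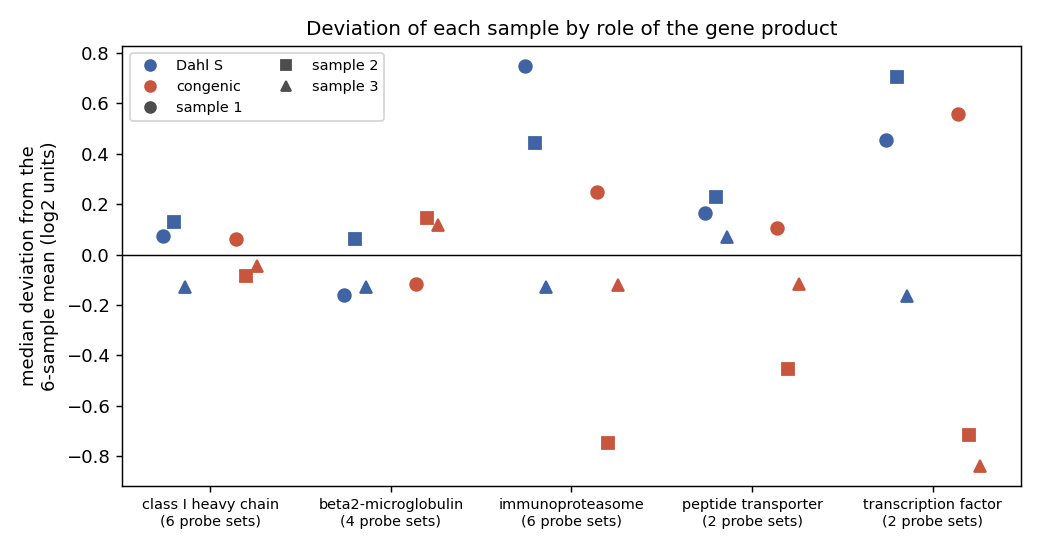
Median deviation of each sample from the mean of the 6 samples, in log2 units, for the member probe sets of each role; colour gives the strain and marker shape the sample number. The immunoproteasome and Irf1 values spread over more than 1 log2 unit, and those of the heavy chains and B2m stay within 0.2 of 0.

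The number of members with an unadjusted p under 0.05 depended on single samples and on the processing. It was 4 with all samples, 1 without Dahl S sample 1, 1 without Dahl S sample 2, 1 without congenic sample 2 and 1 without congenic sample 3. The counts over all 15721 tested probe sets were 391, 494, 370, 398 and 417 in the same order. It was 3 without Dahl S sample 3 or without congenic sample 1, and 2 without both samples numbered 1 (345, 600 and 555 over all 15721). With all samples it was 1 under median scaling, where the Psmb9 probe set of type B (-0.71) no longer had a p under 0.05. It was 2 with no intensity trend, and 3 with quantile normalization or no filter. The counts over all tested probe sets were 313 with median scaling, 407 with no trend and 375 with quantile normalization, each of 15721. With no filter it was 797 of 26202. The Psmb9 probe set of type B stayed between -0.91 and -0.71 with each sample left out in turn and was -0.62 without both samples numbered 1.

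The other genes of peptide processing and loading differed by -0.83 to +0.29 in the tested probe sets chosen per gene. Of 30 on the list, 24 had a probe set with a single symbol and 19 were tested. Of these, 12 were lower and 7 higher in the congenic strain (median -0.10, against -0.0065 and 51.1% lower over all 8168 genes), 0 passed limma's adjusted threshold (0.00% of all genes) and 0 had an unadjusted p under 0.05 (2.35% of all genes). Tap2, the other TAP subunit, gave 131.2, 96.5 and 132.5 in Dahl S and 91.8, 119.0 and 115.0 in the congenic strain (-0.14, SE 0.24). Psmb10, the remaining inducible subunit MECL1, gave 89.3, 164.4 and 41.6 against 29.9, 68.3 and 121.2, with no order between the strains (-0.43, SE 0.65). The proteasome activator subunits Psme1 (+0.04, SE 0.21) and Psme2 (-0.16, SE 0.17) overlapped. The 2 genes with the smallest p were RT1-M3-1, a nonclassical class I gene (-0.83, SE 0.58), whose congenic values ran from 33.4 to 171.0, and Lnpep, an aminopeptidase of cross-presentation (-0.34, SE 0.24).

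The constitutive beta subunits were also near 0. Of 6 tested genes, 3 were lower and 3 higher (median +0.01), with 0 at an unadjusted limma p under 0.05. Psmb5 gave 751.1, 1014.2 and 1070.0 in Dahl S and 1023.2, 1229.5 and 1033.5 in the congenic strain (+0.22, SE 0.17), and Psmb7 differed by +0.10 (SE 0.18). Psmb4, with the second smallest p, differed by +0.24 (SE 0.20).

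Genes of the interferon response were mixed in direction. Of 63 on the list 42 were tested, and 24 were lower and 18 higher in the congenic strain (median -0.03), with 0 past limma's adjusted threshold. With the probe set chosen per gene, an unadjusted p under 0.05 was found for 2 of the 42 (2.35% of all genes), both lower. Ubd encodes the ubiquitin-like modifier FAT10, which is induced by interferon gamma and TNF. It gave 182.0, 241.1 and 308.9 in Dahl S and 122.8, 40.3 and 123.6 in the congenic strain, with no overlap (-1.49, SE 0.46, limma adjusted p = 0.9997). Ifitm3, an interferon-induced membrane protein, gave 1465.7, 1261.4 and 1097.4 against 997.0, 940.5 and 958.9, also with no overlap (-0.39, SE 0.15, limma adjusted p = 0.9997), and its other 3 probe sets differed by -0.62, -0.28 and -0.28. The strains did not overlap in 6 of the 42, all lower in the congenic strain, where 3.80% of all genes were lower without overlap and 3.82% higher. Beside Ubd and Ifitm3 these were Nfkb1 (-0.45, SE 0.27), Irf9 (-0.50, SE 0.30), the chemokine Cxcl11 (-0.70, SE 0.49) and the antiviral synthetase Oas1a (-0.16, SE 0.14). Ifng itself was below the filter.

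**Figure D5:**
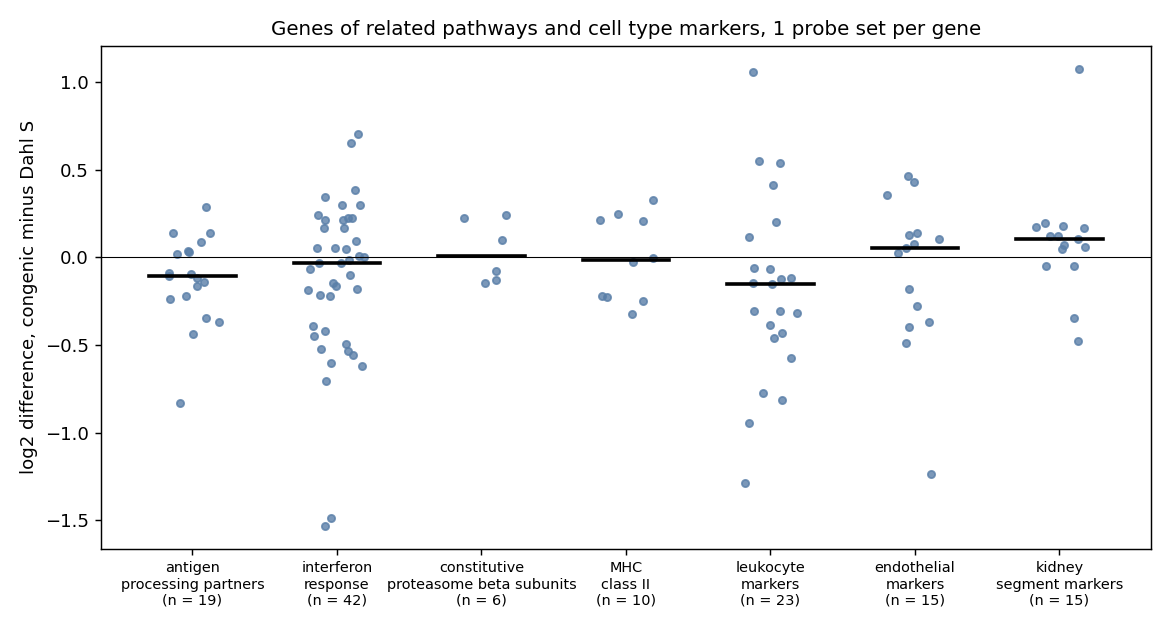
Log2 difference, congenic minus Dahl S, of each tested gene in 7 lists, with 1 point per gene and the median as a bar. The list medians lie between -0.15 (leukocyte markers) and +0.10 (kidney segment markers), and Ubd at -1.49 is among the lowest interferon response genes.

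Other cells that carry class I and the immunoproteasome were followed through their markers. Of 23 tested leukocyte genes 17 were lower and 6 higher (median -0.15), and their summed signal was 4983.2 to 6116.0 in Dahl S and 4421.6 to 4973.0 in the congenic strain. The strains were separated only by the gap between Dahl S sample 3 (4983.2) and congenic sample 2 (4973.0), and the sum adds signals of different probe sets, of which Fcer1g, Lyz2 and Rac2 were the brightest. Coro1a, an actin regulator of leukocytes, differed by -0.81 (SE 0.33), and Nkg7, of cytotoxic lymphocytes, by +1.06 (SE 0.36), both with an unadjusted limma p under 0.05 and an adjusted p = 0.9997. Nkg7 had 2 values below the filter level. The strains did not overlap in 3 lower genes, Coro1a, Cd68 (-0.43, SE 0.19) and Fcgr3a (-0.78, SE 0.36), and in 1 higher gene, Nkg7. Over all genes 3.80% were lower without overlap and 3.82% higher. A further 12 leukocyte genes on the arrays were below the filter, among them Ptprc (CD45), Cd3d and Cd8a. The leukocyte median was -0.02 without Dahl S sample 2. The part of these marker values in the Psmb9, Irf1 and type A Psmb8 differences was not tested.

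Class II genes, carried by antigen-presenting cells, had 6 of 10 lower (median -0.01), with summed signals of 8803.2 to 10011.3 and 8175.4 to 8874.0. With the probe set chosen per gene, the invariant chain Cd74 (-0.23, SE 0.12) and RT1-Db1 (-0.22, SE 0.13) had the smallest p. Neither of these probe sets had an unadjusted p under 0.05. Another Cd74 probe set, rc_AI105172_r_at, differed by -1.26 (SE 0.41) with overlap. It had an unadjusted limma p under 0.05 and did not pass the adjusted threshold. The remaining probe sets differed by -0.35, -0.21 and -0.17 for Cd74 and by -0.87, -0.76 and -0.28 for RT1-Db1. Endothelial markers had 9 of 15 higher (median +0.05) and overlapping sums (3268.5 to 4022.3 and 3673.8 to 4065.3). Egfl7, an endothelial secreted factor, was the 1 endothelial gene with an unadjusted limma p under 0.05 (-1.24, SE 0.40), and its other probe set differed by -0.10 (SE 0.54). Kidney segment markers had 11 of 15 higher (median +0.10), with the endocytic receptor Cubn at +0.18 (SE 0.12) and the podocyte gene Podxl at +1.08 (SE 0.54), where Dahl S sample 3 (55.6) was far below the other 5 samples. The strains did not overlap in 4 of the 15 (Podxl, Cubn, Slc22a6 and Aqp2), all higher, where 3.82% of all genes were higher without overlap. Class II genes had 2 lower and 1 higher without overlap, and endothelial markers 1 each way. Antigen processing partners and constitutive subunits had 0.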

How the data were processed

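Kidney RNA from 6 samples, 3 per strain by their titles, was measured on 3 array designs. The authors' deposited intensity values, 1 per probe set, had a mean of 150.09 to 150.24 on every array after 2% trimming at each end, and they were used without rescaling. The program behind the probe summaries is unstated in the sources used here. Values below the 10th percentile of an array type were raised to it before log2. Left out were 59 controls per type and probe sets whose mean log2 signal fell below the 40th percentile of their type. For the difference of congenic from Dahl S, limma 3.58.1 (R 4.3.3) ran lmFit and eBayes, trend on, with 1 fit per array type and Benjamini-Hochberg adjustment over the 15721 tested probe sets. The procedure was tested on simulated data with independent noise in each sample. These lacked the likeness between the samples numbered 1 of both strains, so the test does not cover it.

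Probe sets were named where the GEO platform annotation gave 1 gene symbol (18178 of 26202), and 391 had several. The gene lists hold 1 probe set per gene, the one with the highest mean log2 signal. Members and lists were chosen with earlier results of these data known. All probe sets of the 10 genes are described. Of the other lists, genes with an unadjusted p under 0.05 (up to 8) are named, or else the 2 with the smallest p. Psmb5, Psmb6, Psmb7, Tap2, Tapbp, Psmb10, Psme1 and Psme2 were to be named in any case, but Psmb6 and Tapbp matched no probe set with a single symbol and were not analysed here. Another gene of that rule is not reported here. Other names were chosen after their values were seen. Promoter sequences are RefSeq's, from the GRCr8 assembly. Alternatives covered the floor, filter, normalization, eBayes settings, sample number and each sample left out. Plots used matplotlib 3.10.9 (Python 3.11.15).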

Additional observations from a re-analysis of the deposited data

How the results depend on the processing

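Under all alternatives run, limma called 0 of the tested probe sets, and the member median stayed between -0.26 and -0.10. The member median kept its direction in each, and of 20 member probe sets 13 or 14 were lower in each alternative that kept 20, except without Dahl S sample 3 (15). With no filter 15 of 21 were lower. With the 60th percentile filter 12 members were tested and 8 were lower, because fewer were tested. Member signs reversed in 15 of 352 comparisons, all in probe sets within 0.31 log2 units of 0, and the cause was not tested. With median scaling RT1-S3 rc_AI235890_s_at was +0.017. Without both samples numbered 1 it was +0.15 and RT1-N3 was -0.31. With each sample left out in turn the ranges were -0.28 to 0.22 for RT1-S3 rc_AI235890_s_at, -0.32 to 0.42 for RT1-N3, -0.079 to 0.36 for B2m rc_AA848811_at, -0.053 to 0.28 for B2m rc_AI172570_at, -0.84 to 0.20 for Psmb9 D10757_at and -0.25 to 0.0093 for Tap1 X57523_at. List medians that moved by more than the spread between samples were those of leukocyte markers with no filter (-0.30) or the 60th percentile filter (-0.31), of kidney segment markers with quantile normalization (+0.041), and, without both samples numbered 1, of antigen processing partners (-0.0062) and kidney segment markers (+0.15). Leaving out each sample gave -0.28 to -0.018 for leukocyte, -0.16 to 0.12 for endothelial and 0.019 to 0.17 for kidney segment markers, -0.032 to 0.063 for constitutive proteasome subunits and -0.15 to -0.023 for antigen processing partners. The replicate block called 0 probe sets and gave a member median of -0.15; 819 probe sets had an unadjusted p under 0.05, against 391 without it. Deviations of same-numbered samples correlated at 0.45, 0.08 and 0.18, and Dahl S sample 2 correlated better with congenic sample 3 (0.15) than with its own number. Not every pair passed 0.1, so the numbers were not taken as a pairing, although the samples numbered 1 correlated most of all 9 pairs. Signal near the filter level limits RT1-N3, Psmb8 on type C, and the weaker Psmb9, Tap1 and Irf1 probe sets.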
